A study of Homo sapiens with 10 samples.

Results

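The genes described here encode the WNT ligands and the cell-surface and feedback machinery that receives them. They were chosen by gene symbol: every WNT, FZD, DKK and SFRP gene, LRP5 and LRP6, ROR1, ROR2 and RYK, WIF1, AXIN2, NKD1 and NKD2, and RNF43 and ZNRF3. That rule, which uses no measured value, took 48 of the 57955 Ensembl genes in the tables. Of these, 32 had at least 20 raw counts in a library and are described, and the other 16 are counted as silent. The threshold fell between WNT10A, outside it with at most 17 counts in any library, and SFRP5, inside it with at most 22. The 32 described genes are 9 of 19 WNT ligands, 9 of 10 Frizzled receptors, all 5 co-receptors and alternative receptors, 4 of 9 secreted antagonists and all 5 feedback regulators.

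mRNA was sequenced from 5 melanoma cell lines carrying a BRAF mutation, and from the derivative of each that had been made resistant to encorafenib, a BRAF inhibitor, together with binimetinib, a MEK inhibitor. The sensitive lines WM983A, WM278 and WM902B come from primary tumours and WM983B and WM1617 from metastases. WM983A and WM983B were established from the same patient, as were WM278 and WM1617, so the 5 lines are not 5 independent donors. Resistance was selected by stepping both drugs up from 1 nM, over 3 to 5 months, until 200 nM was reached, the concentration in which the resistant lines, named E+BRes, were then kept. The drugs are therefore present in every resistant culture and in no sensitive one, and acquired resistance and the presence of drug cannot be told apart. Each line and state is 1 library, so that the 5 lines serve as the replicates of each group.

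WNT proteins are secreted, lipid-modified signals. In the canonical branch a WNT bridges a Frizzled receptor and LRP5 or LRP6, beta-catenin is spared from destruction, and TCF/LEF factors switch on target genes that include the pathway's own brakes. Other WNTs, of which WNT5A is the textbook case, act through Frizzled with ROR1, ROR2 or RYK on cell polarity and movement, and in melanoma WNT5A is known as a feature of invasive, less pigmented cells. DKK proteins block LRP5 and LRP6, SFRP proteins and WIF1 bind WNTs outside the cell, RNF43 and ZNRF3 remove Frizzled receptors from the membrane, and AXIN2, NKD1 and NKD2 restrain the signal inside it.

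Total counts were 13970608 to 16966008 in the sensitive libraries and 13693922 to 18033247 in the resistant ones. The lower limit used for folds, 3 raw counts in a library, equals 2.61 to 3.5 normalised counts at this depth. A normalised count is the raw count divided by the TMM-scaled library size and brought to the mean library size. The resistant WM983A library stood apart. Over the 17288 genes that passed the filter on low counts it correlated less with its own sensitive library (r = 0.79 on the log2 scale, across genes) than with sensitive WM902B (r = 0.81), whereas the other 4 resistant libraries were nearest to their own line (r = 0.87 to 0.98). Several results below rest on WM983A, and the values without it are given beside them. The melanocyte markers varied between the sensitive lines, and only SOX10 was high in all 5. SOX10, a transcription factor of the melanocyte lineage, had 4664 to 5228 normalised counts in all 5. It was at 98.4 in resistant WM983A, 192 in WM983B and 10.1 in WM902B, and at 4165 in WM278 and 5136 in WM1617. Of the 7 melanocyte markers, all 7 were at least 2-fold lower in resistant WM983A. In WM983B 6 were, while MLANA was 4.39-fold higher. In WM902B 5 were, while MITF was 1.83-fold lower, at 3347 normalised counts, and TYRP1 2.03-fold higher. MITF, PMEL, MLANA, TYR, TYRP1 and DCT were low in both WM278 libraries, at no more than 220 normalised counts. The summed level of the 7 melanocyte markers was 5114 to 67802 in sensitive and 1310 to 65758 in resistant libraries. In the test described below 0 of 7 were higher and 1 lower (TYRP1, or TYR with cell line as a block). Of the fibroblast list of 7 genes, COL1A1 was higher in both fits described below and PDGFRB in the one without a block, and the summed level ran from 202 to 1337 in sensitive and from 126 to 25627 in resistant libraries. In resistant WM983A 4 of the 7 were at least 2-fold lower (LUM 137-fold, FAP 76.3-fold, DCN at least 12-fold and PDGFRB 2.60-fold), and only COL1A1 was higher by as much. In WM278 6 of the 7 fibroblast genes were at least 2-fold higher and 1 lower, in WM983B 5 and 1. In WM902B it was 4 and 0, and in WM1617 1 and 1. Among leukocyte markers PTPRC and CD3E had at most 5.41 normalised counts anywhere, CD68 had 70.3 to 1187 and was not called, and LYZ had at most 54.3 and was lower with the block alone (-3.40 on the log2 scale). The summed level of the leukocyte list was 130.1 to 1211 in sensitive and 71.3 to 1053 in resistant libraries. The 6 markers of a dedifferentiated melanoma state (AXL, NGFR, EGFR, TEAD1, FOSL1 and SOX9) did not move together. In resistant WM983A 3 of them were at least 2-fold higher and 2 lower, and in WM983B 2 and 1. In WM278 it was 1 and 4, in WM1617 1 and 1, and in WM902B 2 and 3. NGFR was lower and EGFR higher in WM983A, WM983B and WM902B. Of the 6, only NGFR was called, lower without a block. What part these state markers have in the values below was not tested. Since each library is bulk RNA, fewer cells expressing a gene and less RNA per cell cannot be told apart.

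The sequences upstream of the 4 described genes that differed in a single direction in all 5 lines and passed the filter on low counts are shown first. WNT6 and DKK1 were higher in every resistant line, and FZD1 and RNF43 lower. Of all genes past the filter, 5.74% were higher in all 5 lines and 5.33% lower. The rise of DKK1 was sizeable only in WM983A. Each run is the 250 bases before the annotated RefSeq start (GRCh38.p14), written 5′ to 3′ on the strand of the gene, in lower case. RNF43 has 2 annotated starts, and both are shown. The capitals mark the only match to a searched motif.
WNT6, chr2:218859555-218859804, plus strand: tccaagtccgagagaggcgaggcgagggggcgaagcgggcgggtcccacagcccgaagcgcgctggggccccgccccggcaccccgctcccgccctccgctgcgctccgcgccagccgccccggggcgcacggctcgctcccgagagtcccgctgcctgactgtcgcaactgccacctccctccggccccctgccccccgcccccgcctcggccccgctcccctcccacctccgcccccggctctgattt
DKK1, chr10:52314031-52314280, plus strand: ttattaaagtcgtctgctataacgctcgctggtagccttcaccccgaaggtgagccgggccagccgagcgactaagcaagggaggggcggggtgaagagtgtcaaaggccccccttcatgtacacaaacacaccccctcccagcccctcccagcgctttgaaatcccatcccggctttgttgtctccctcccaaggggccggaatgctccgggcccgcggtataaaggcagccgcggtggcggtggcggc
FZD1, chr7:91264183-91264432, plus strand: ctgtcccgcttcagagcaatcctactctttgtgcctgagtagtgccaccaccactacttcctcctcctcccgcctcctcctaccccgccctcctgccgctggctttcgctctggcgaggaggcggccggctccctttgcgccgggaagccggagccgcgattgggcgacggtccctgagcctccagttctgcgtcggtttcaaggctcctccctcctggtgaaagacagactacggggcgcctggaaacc
RNF43, upstream start, chr17:58417535-58417784, minus strand: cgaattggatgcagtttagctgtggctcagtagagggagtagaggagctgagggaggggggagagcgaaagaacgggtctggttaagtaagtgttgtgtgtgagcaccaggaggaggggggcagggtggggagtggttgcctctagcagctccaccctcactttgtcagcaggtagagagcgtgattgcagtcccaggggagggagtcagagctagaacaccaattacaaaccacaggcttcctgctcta
RNF43, downstream start, chr17:58402722-58402971, minus strand: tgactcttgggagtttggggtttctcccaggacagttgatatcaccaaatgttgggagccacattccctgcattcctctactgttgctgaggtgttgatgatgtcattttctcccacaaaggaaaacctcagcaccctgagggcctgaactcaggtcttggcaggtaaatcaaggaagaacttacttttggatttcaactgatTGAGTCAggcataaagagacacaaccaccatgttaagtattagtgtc

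The 5 runs differ in base composition. WNT6 has 79.2% G and C with 32 CpG dinucleotides, FZD1 65.2% with 19 and DKK1 62.8% with 18, whereas the RNF43 runs have 56% with 4 and 45.2% with 0. Over windows from 250 bases before to 50 bases after the start, 3 motifs were searched on both strands: TGANTCA, the letters bound by AP-1, CTTTGAT, a TCF/LEF sequence, and CACGTG, the E-box that MITF can bind. Of the 20 described genes searched, only RNF43 held one, the AP-1 letters 47 to 41 bases before its downstream start. Of the 35116 RefSeq promoters of the same length, 7.71% held the AP-1 letters, 2.62% the TCF/LEF letters and 7.26% the E-box. A match is a description of letters and not a bound site.

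The first comparison asks which of these genes differed between the 5 resistant and the 5 sensitive lines as groups. WNT6, a ligand, FZD2, a Frizzled receptor, and AXIN2, a feedback inhibitor that is a standard readout of beta-catenin signalling, were higher in the resistant lines at an unadjusted p of at most 0.05 and at least 2-fold. None of the genes was lower by that rule. Of the 32 described genes 28 passed the filter on low counts. WNT6 passed it only through its resistant libraries, which favours a call as higher. By edgeR's quasi-likelihood test 3 of 28 were higher and 0 lower, where 3.53% of all 17288 genes were higher and 0.885% lower. After Benjamini-Hochberg adjustment over all genes 0 of the 28 passed, as did 0.0% of all genes, and the smallest adjusted p was 0.630 for any gene. DESeq2 without a block called 1 of the 28 after adjustment, WNT6, which was higher, where it called 0.532% of all genes higher and 0.102% lower. After adjustment limma-voom called 0 of the 28, and 0.0% of all genes higher and 0.0% lower. The median log2 fold change of the 28 was 0.47, against 0.03 for all genes tested, and their median absolute change was 0.72 against 0.30. The blocked fit of the next paragraph gave a median of 0.15, against 0.004 for all genes. Taken line by line, the median log2 ratio of the 28 was above 0 for WM983A alone, at 0.58. For the remaining lines it lay between -0.38 (WM902B) and -0.02 (WM278). The median of 0.47 is thus not a rise shared by the lines.

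With cell line as a replicate block, which sets each resistant library against its own sensitive line, the genes called differed in part. WNT6 and FZD2 were again higher, AXIN2 was not called, and RNF43, FZD1 and WNT10B were lower. That is 2 of 28 higher, where the blocked fit called 3.49% of all genes, and 3 of 28 lower, where it called 2.05%. In this fit too 0 of the 28 passed after adjustment. DESeq2 with the same block called WNT6 and FZD2 higher and RNF43 lower after adjustment, with 1.59% of all genes higher and 1.4% lower by that rule. The plot of both fits gives all 28 estimates.

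**Figure D1:**
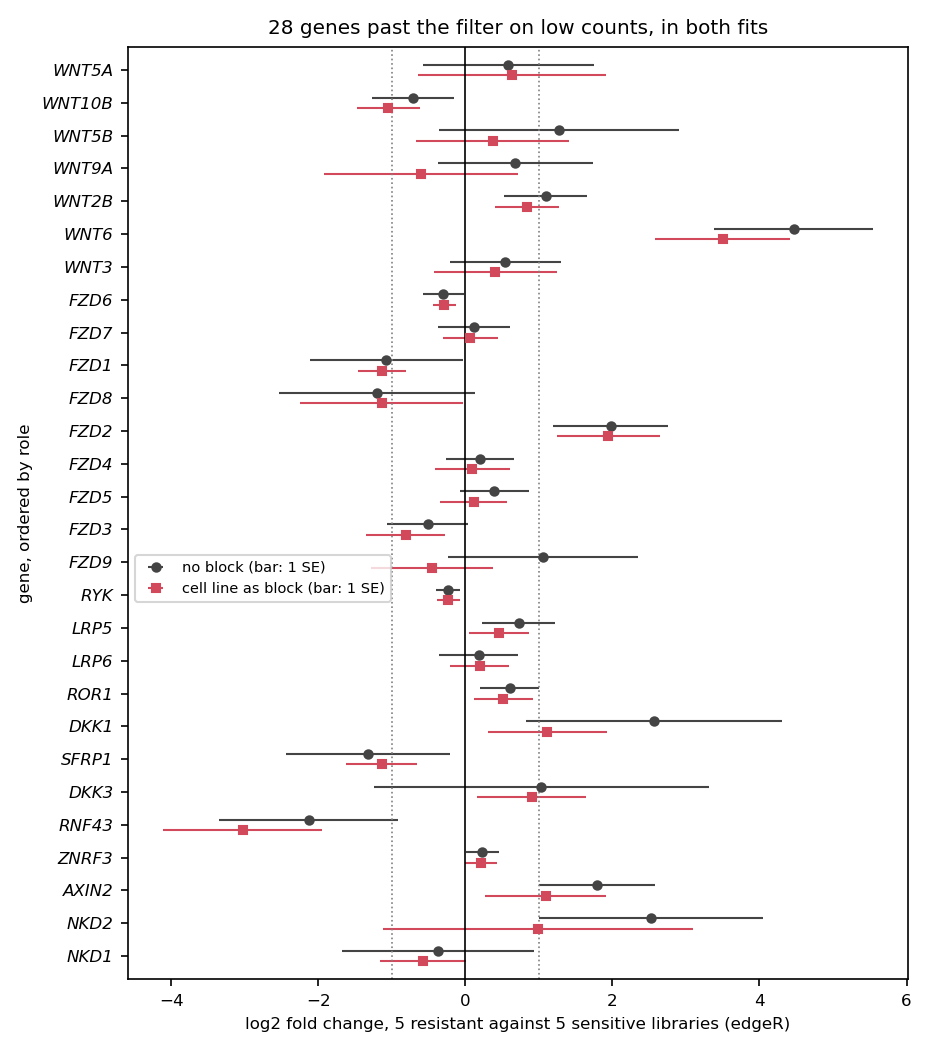
Log2 fold change of the 28 genes that passed the filter on low counts, 5 resistant against 5 sensitive libraries, from edgeR without a block (grey circles) and with cell line as a block (red squares). Bars are 1 standard error and dotted lines mark 2-fold. WNT6 lies farthest to the right at 4.46 and 3.50, RNF43 farthest to the left at -2.13 and -3.03, and WNT9A and FZD9 lie on opposite sides of 0 in the 2 fits.

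Line by line, the median size of the change was larger for these genes than for all genes in every line. In resistant WM983A 13 of the 28 were higher by 2-fold or more and 7 were lower by as much, where 16.9% and 19.4% of all genes were. In WM983B 7 were higher and 8 lower (16.2% and 11.2% of all genes), and in WM278 3 were higher and 7 lower (12.0% and 7.02%). In WM1617, the line that changed least, 2 were higher and 4 lower (2.83% and 3.79%). In WM902B 9 were higher and 11 lower (15.4% and 12.0%). The median size of the change was 1.98 on the log2 scale in WM983A against 0.71 for all genes, and 0.42 against 0.25 in WM1617. These ratios were taken with 1 added to both levels. With counts under 3 raised to 3 instead, the counts higher and lower were 13 and 7 in WM983A (17.1% and 19.6% of all genes), and 7 and 7 in WM983B (16.3% and 11.3%). By the same rule they were 3 and 8 in WM278 (12.2% and 7.05%), 9 and 9 in WM902B (15.6% and 12.0%), and 1 and 4 in WM1617 (2.59% and 3.63%). With 1 library per line and state these counts have no replicate check within a line. Between lines the direction often differed: 2 of the 28 were higher in all 5 lines (WNT6 and DKK1), where 5.74% of all genes were, and 2 were lower in all 5 (FZD1 and RNF43), where 5.33% were.

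**Figure D2:**
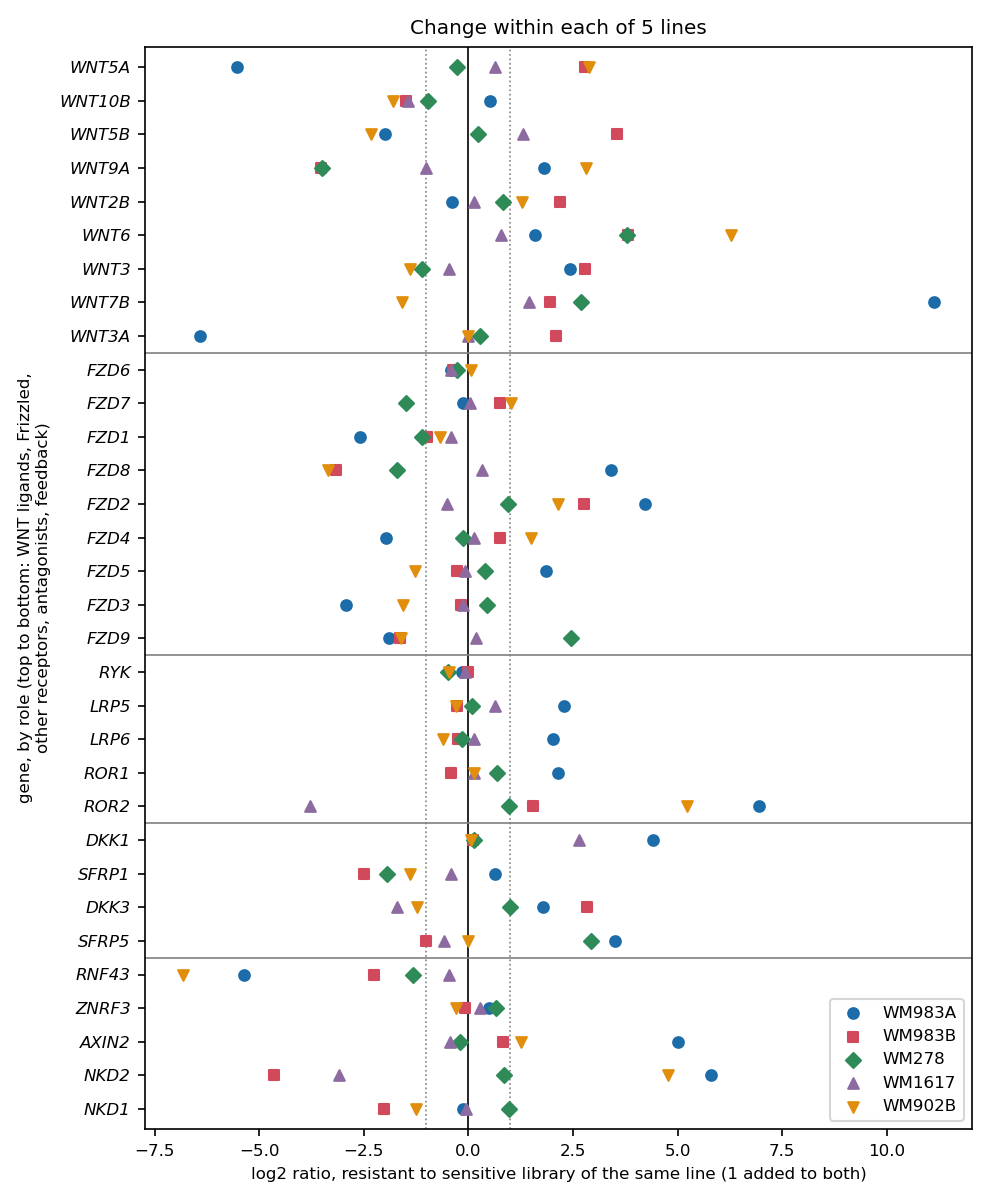
Log2 of resistant over sensitive normalised counts in each line, after 1 was added to both, for the 32 described genes in order of role. Each symbol is a line and dotted lines mark 2-fold. The ratios of WNT5A run from -5.54 to 2.88 and those of ROR2 from -3.79 to 6.95, whereas all 5 ratios of WNT6 lie right of 0 and all 5 of RNF43 left of it.

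Among the ligands, WNT6 was higher in every resistant line. The gene (ENSG00000115596) lies on chr2:218859805-218874233, plus strand, and is known as a canonical ligand. In the sensitive libraries of WM983A, WM983B, WM278, WM1617 and WM902B, an order kept throughout, it had 4.0, 7.05, 0.95, 8.69 and 4.06 normalised counts, and in the resistant ones 14, 112, 26.2, 15.7 and 389. The lowest resistant library was above the highest sensitive one. WNT6 was the 1 gene of the 28 without overlap in that direction, where 0.44% of all genes had none. In the other direction it was 0 of the 28 and 0.318% of all genes. Each sensitive library had at most 8 raw counts, so WNT6 passed the filter on low counts only through the resistant libraries. In such a gene that filter favours a lack of overlap and a call as higher. No conclusion is drawn from the lack of overlap, from the calls of WNT6 or from their hold when a line is left out. The change was 95.8-fold in WM902B, 15.9-fold in WM983B, 3.50-fold in WM983A and 1.80-fold in WM1617. In WM278 it was 27.5-fold, from a single count, with an exact 95% interval of 4.53 to 1124 that covers counting error only. By edgeR the log2 fold change was 4.46 with an SE of 1.08 (adjusted p = 0.630), and 3.50 with an SE of 0.92 in the blocked fit (adjusted p = 0.461). Leaving out any 1 line kept it past the threshold, with log2 fold changes of 3.01 to 5.03 and 2.70 to 4.27 in the 2 fits. WNT10A, which lies 6618 bases downstream of WNT6, had at most 17 raw counts.

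WNT5A, the non-canonical ligand, was the most abundant WNT mRNA in most libraries and went in opposite directions in different lines. It is ENSG00000114251 on chr3:55465715-55490539, minus strand. Sensitive libraries held 1674, 312, 5469, 218 and 757 normalised counts, and the resistant ones held 35, 2147, 4541, 337 and 5589.8. It was 6.89-fold higher in resistant WM983B and 7.38-fold higher in resistant WM902B, and 47.8-fold lower in resistant WM983A. In WM278 and WM1617 the ratio was under 2-fold. The groups overlapped widely, and the edgeR log2 fold change was 0.59 with an SE of 1.16 (adjusted p = 0.947). Without WM983A it was 0.90, and 1.52 in the blocked fit, and without WM902B it was -0.10, none of them called. WNT5B, the closest relative of WNT5A, had 40.3, 57.2, 362, 4.34 and 4.04 normalised counts in the sensitive libraries and 9.34, 687, 425, 12.1 and 0 in the resistant ones. It was 12-fold higher in resistant WM983B and 4.31-fold lower in resistant WM983A, the same directions as WNT5A in these lines, but in WM902B it went from 3.97 raw counts to 0.

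WNT7B, usually a canonical ligand of epithelia, was nearly absent from 9 libraries and abundant in the other. Its normalised counts in the sensitive libraries were 1.0, 0, 0.95, 0 and 20.3. The resistant libraries of WM983B, WM278, WM1617 and WM902B had 2.86, 11.6, 1.74 and 6.16, and resistant WM983A had 4513. With a single count in sensitive WM983A the ratio there was 4512, with an exact 95% interval of 809 to 178275. The gene (ENSG00000188064, chr22:45920366-45977162, minus strand) fell under the low-count filter, and the exact permutation test gave p = 0.143, two-sided, where 0.00794 is the smallest p that 5 against 5 libraries allow. Here and below that test regroups the libraries freely and ignores the pairing of each resistant library with its own sensitive line. Per kilobase of exon WNT7B made up 92.9% of the ligand mRNA of resistant WM983A, in place of WNT5A, which made up 78.0% in sensitive WM983A. The difference in mean log2 level was 3.13 over all lines, 1.13 without WM983A (exact permutation p = 0.371) and 4.31 without WM902B (exact permutation p = 0.0286, the smallest that 4 against 4 libraries allow). WM902B is the only line in which WNT7B was lower. Without it the separation rests in part on 3 and 2 raw counts in resistant WM983B and WM1617, against 0 in their sensitive libraries. These counts are not above the lower limit used for folds, so no conclusion is drawn from that p.

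WNT3A, the ligand most used to trigger canonical signalling in culture, was found only in the 2 lines from the same patient. Sensitive WM983A had 84.8 normalised counts and sensitive WM983B 41.2, and the other 3 sensitive libraries had 0. In the resistant libraries WM983B had 179, WM278 had 0.20 and the other 3 had 0. It was thus at least 24.2-fold lower in resistant WM983A, with the bound taken at 3 counts in that library, and 4.35-fold higher in resistant WM983B (exact permutation p = 1). WNT9A, which lies 59065 bases from WNT3A on chromosome 1, did not follow it. The sensitive libraries had 16.3, 32.2, 55.3, 9.77 and 19.7 normalised counts of WNT9A and the resistant ones 59.4, 1.91, 3.96, 4.35 and 144. It was 14-fold lower in WM278 and 7.35-fold higher in WM902B. In WM983B it was 16.9-fold lower, with an exact 95% interval of 4.31 to 145, since 2 counts remained. WNT9A had a log2 fold change of 0.68 in the fit without a block and -0.61 with it (adjusted p = 0.928 and 0.871).

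WNT10B, a canonical ligand, was lower in 4 of 5 lines. It had 42.0, 27.2, 21, 36.9 and 48.9 normalised counts in the sensitive libraries and, in the resistant ones, 60.7, 9.07, 10.3, 13.1 and 13.4. Resistant WM983A, the highest of all 10, is the only resistant library that overlaps the sensitive ones. The log2 fold change was -0.72 (edgeR adjusted p = 0.821) and -1.05 with an SE of 0.42 in the blocked fit, which called it before adjustment. Without WM983A it was -1.51 and -1.46, called in both fits, and without any other line the blocked fit gave -0.83 to -1.06 and did not call it. WNT2B and WNT3, the remaining ligands, ran from 16.3 to 157 and from 3.14 to 63.6 normalised counts. WNT2B was at least 2-fold higher in 2 lines and lower in none, with a log2 fold change of 1.09 (edgeR adjusted p = 0.732) that passed the call only without WM1617 (1.17) and, in the blocked fit, without WM983A (1.15). It shares 21.5% of its exon bases with ST7L on the opposite strand. WNT3 was at least 2-fold higher in 2 lines and lower in 2.

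The other 10 ligands were silent. WNT7A, WNT8A and WNT9B had no count in any library, WNT1, WNT2 and WNT8B had at most 2, and the highest raw count of WNT4, WNT16, WNT11 and WNT10A was 6, 11.6, 13.5 and 17.

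**Figure D3:**
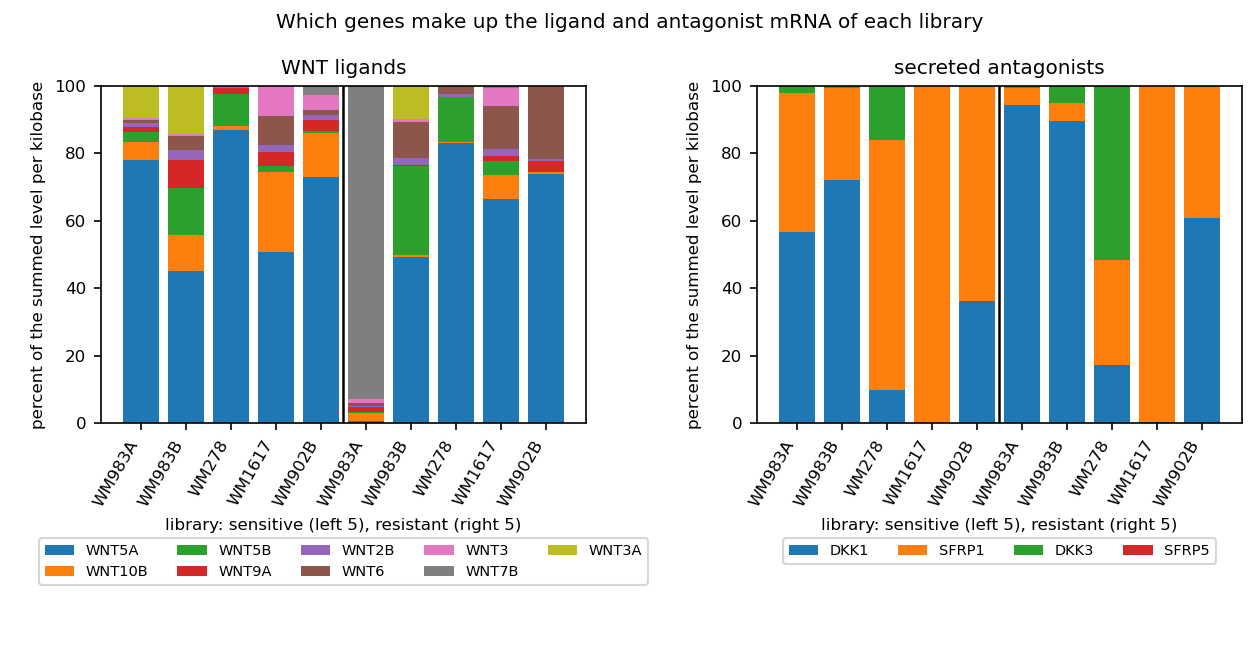
Share of each WNT ligand (left) and each secreted antagonist (right) in the summed level per kilobase of exon of its group, for the 5 sensitive and then the 5 resistant libraries. WNT5A leads in 9 of 10 libraries, with 45% to 87.1% of the ligand sum in the sensitive ones, and WNT7B leads in resistant WM983A with 92.9%. Among antagonists DKK1 holds 94.4% in resistant WM983A and SFRP1 99.9% in sensitive WM1617.

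Per kilobase, the summed ligand level was 300.2, 96.7, 878, 59.9 and 145 in the sensitive libraries, in the order of lines above, and 956, 609, 765, 70.9 and 1057 in the resistant libraries. The sum was thus higher in resistant WM983A, WM983B and WM902B, and the gene that made it up differed between them: WNT7B in WM983A, WNT5A (49.3%) and WNT5B (26.6%) in WM983B, and WNT5A (73.9%) and WNT6 (21.4%) in WM902B. These are the 3 resistant libraries in which SOX10 was low, although WM902B kept MITF at 3347 normalised counts. WM278 had a high ligand sum in both states, with SOX10 at 4845 and 4165 normalised counts in its sensitive and resistant libraries. MITF was at 163 and 220 there, and PMEL at 67.2 and 65.2. How the ligand sum relates to these markers was not tested.

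Among the Frizzled receptors FZD2 was higher and FZD1 lower. The gene for FZD2 (ENSG00000180340) lies on chr17:44557484-44561262, plus strand, and had 61.3, 97.9, 489, 85.1 and 101 normalised counts in the sensitive libraries and 1160.0, 677, 945, 59.7 and 447 in the resistant ones. Resistant WM1617 was the lowest of all 10 and sensitive WM278 stood above the other sensitive libraries, so the groups overlapped. The change was 18.9-fold in WM983A, 6.91-fold in WM983B and 4.43-fold in WM902B, and 1.93-fold in WM278. The log2 fold change was 1.98 with an SE of 0.78 (edgeR adjusted p = 0.676) and 1.94 with an SE of 0.70 in the blocked fit. FZD2 lost its call in both fits without WM983A (1.46), without WM983B (1.81) and without WM902B (1.96, all without the block).

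FZD1 (ENSG00000157240, chr7:91264433-91271326, plus strand) had 570.2, 554, 5825, 570.2 and 418 normalised counts in the sensitive libraries and 94.6, 278, 2705, 426 and 263 in the resistant ones. WM278 was far above the other lines in each state, and the groups overlapped, but every line had less FZD1 in its resistant library. The log2 fold change of -1.08 had an SE of 1.04 without a block (edgeR adjusted p = 0.866), and the -1.13 of the blocked fit had an SE of 0.33 (adjusted p = 0.461). Without WM983A, where the change was 6.03-fold, the blocked estimate was -0.80, under 2-fold.

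FZD8 went in different directions in different lines. Its normalised counts were 16, 154, 2958, 407 and 198 in the sensitive libraries, and the resistant ones 181, 16.2, 901, 509 and 18.5. It was 11.3-fold higher in resistant WM983A, 9.49-fold lower in WM983B, 10.7-fold lower in WM902B and 3.28-fold lower in WM278. Its log2 fold change was -1.20 (edgeR adjusted p = 0.886), and the blocked fit called it lower only without WM983A (-1.96). FZD6 and FZD7, the most abundant Frizzled mRNAs per kilobase in most libraries, moved little: FZD6 ran from 922 to 2299 normalised counts with a ratio of at most 1.34-fold in any line, and FZD7 from 545 to 2569 with 2 lines past 2-fold, in opposite directions. FZD3, FZD4, FZD5 and FZD9 had log2 fold changes of -0.51, 0.20, 0.40 and 1.05 and were called in neither fit. Without WM983A those of FZD3 and FZD5 were -0.21 and -0.24. FZD4 shares 18.9% of its exon bases with PRSS23 on the opposite strand. FZD10 had at most 1 count.

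**Figure D4:**
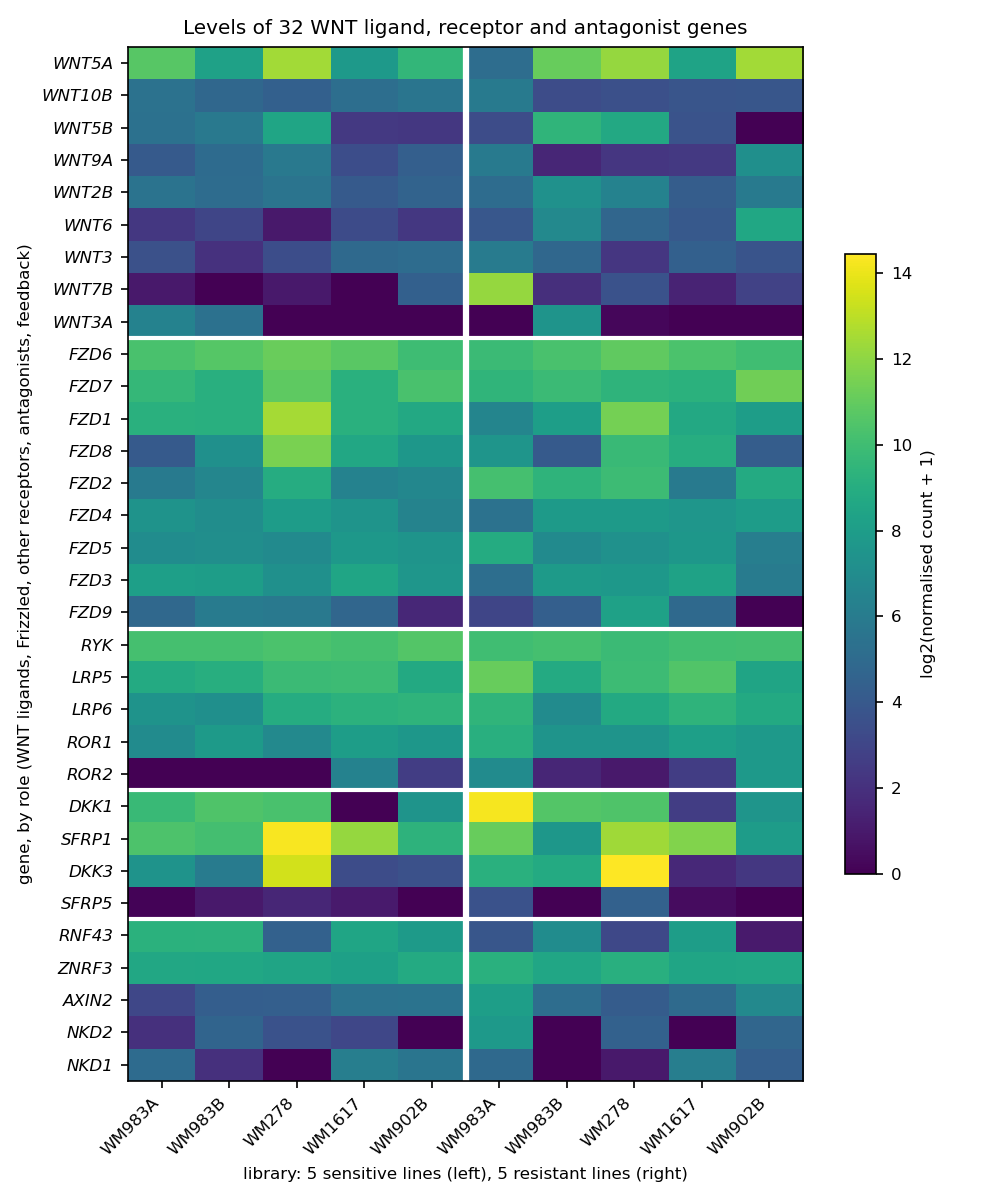
Levels of the 32 described genes, as log2 of the normalised count with 1 added, in the 5 sensitive libraries (left) and the 5 resistant ones (right). White lines separate the roles and genes are ordered within a role by their median level per kilobase in the sensitive libraries. FZD6, RYK and ZNRF3 keep a similar colour across the 10 libraries, whereas WNT7B, ROR2, DKK1 and DKK3 range from at or near 0 to far higher counts.

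LRP5, LRP6, ROR1 and RYK, 4 of the 5 co-receptors and alternative receptors, were present in every library. RYK, a receptor for WNT5A among others, varied little, with 1140.4 to 1535 normalised counts in the sensitive and 936 to 1166 in the resistant libraries, a log2 fold change of -0.24 and an SE of 0.16 (edgeR adjusted p = 0.795). LRP5 had 428 to 956 and 347 to 2171, LRP6 had 148 to 668 and 124 to 695, and ROR1 had 109.6 to 261 and 174 to 544. In resistant WM983A all 3 were at their highest and 4.07-fold to 4.87-fold above sensitive WM983A, and in no other line did any of them change 2-fold. Their log2 fold changes were 0.72, 0.18 and 0.60, and none was called. Without WM983A they were 0.20, -0.19 and 0.10. ROR2, which partners WNT5A in the non-canonical branch, was instead on or off by line. Sensitive libraries held 0, 0, 0, 85.1 and 5.08 normalised counts and the resistant ones 122, 1.91, 0.97, 5.23 and 228. It was at least 40.7-fold higher in resistant WM983A and 44.8-fold higher in resistant WM902B, and 16.3-fold lower in resistant WM1617 (exact permutation p = 0.238). In WM902B WNT5A and ROR2 were both higher in the resistant library, whereas in WM983A ROR2 was higher and WNT5A lower.

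Of the secreted antagonists, DKK1 was higher in every resistant line, but by a sizeable amount only in WM983A. DKK1 is ENSG00000107984 on chr10:52314281-52318042, plus strand, and shares 10.2% of its exon bases with PRKG1-AS1 on the opposite strand. The sensitive libraries had 893, 1414, 1261, 0 and 176 normalised counts and the resistant ones 19105, 1525, 1388, 5.23 and 183. Both WM1617 libraries were at or near 0, and the other lines apart from WM983A changed by 1.04-fold to 1.10-fold. In WM983A it was 21.4-fold higher and reached the highest level per kilobase of any of the 32 genes in that library. The log2 fold change was 2.57 with an SE of 1.74 (edgeR adjusted p = 0.798), and 1.12 with an SE of 0.81 in the blocked fit. Without WM983A it was 0.12. Resistant WM983A therefore had at once the most DKK1, the most LRP5, LRP6 and ROR1, and nearly all of the WNT7B.

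SFRP1, a WNT-binding antagonist, had 656 to 20573 normalised counts in the sensitive and 202 to 5327 in the resistant libraries. It was at least 2-fold lower in WM983B, WM278 and WM902B, and 1.56-fold higher in WM983A. Its log2 fold change was -1.32 (edgeR adjusted p = 0.845) and -1.14 in the blocked fit (adjusted p = 0.468), which called it lower only without WM983A (-1.57). DKK3, which is grouped with the DKK family by sequence but is not known as an LRP5 or LRP6 blocker, differed widely between lines: WM278 had 11134 and 22289 normalised counts, WM983A 167 and 581, WM983B 62.5 and 451, and WM1617 and WM902B at most 10.9. Nearly all of the DKK3 signal is thus from 3 lines, in which the resistant library was the higher by 2.00-fold to 7.21-fold. It shares 47.5% of its exon bases with USP47 on the opposite strand. USP47 had 747 to 2151 raw counts across the libraries, whereas DKK3 had 2.5 to 10.8 raw counts in those of WM1617 and WM902B. SFRP5 reached 21.3 normalised counts in resistant WM278 and 11.7 in resistant WM983A and was at most 1.91 elsewhere (exact permutation p = 0.413). SFRP2, WIF1 and DKK2 had at most 5, 14 and 15 raw counts and DKK4 none. SFRP4 had at most 1 raw count in each sensitive library and 3.4 to 10 in each resistant one, too few for the fit.

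The feedback regulators did not move as a group. RNF43, a ubiquitin ligase that clears Frizzled receptors, was lower in every resistant line. The gene (ENSG00000108375) lies on chr17:58353676-58417595, minus strand. Sensitive libraries held 590.2, 609.6, 21.5, 366 and 229 normalised counts and the resistant ones 13.4, 127, 7.93, 263 and 1.03. The groups overlapped because sensitive WM278 had little and resistant WM1617 kept most of it. The change was 43.9-fold in WM983A, 4.80-fold in WM983B, 2.71-fold in WM278 and 1.39-fold in WM1617. In WM902B it was 222-fold, to a single count, with an exact 95% interval of 39.4 to 8809. The log2 fold change was -2.13 with an SE of 1.22 (edgeR adjusted p = 0.760) and -3.03 with an SE of 1.08 in the blocked fit, which called it before adjustment. The blocked call was lost without WM983A (-2.32) and without WM983B (-3.41), and the fit without a block called it only without WM1617 (-3.27). RNF43 shares 68.4% of its exon bases with an overlapping protein-coding gene on the same strand, ENSG00000285897, which is not in the tables, so reads from that gene cannot be told apart from those of RNF43. ZNRF3, the paralogue with the same function, had 295 to 460.0 and 361 to 565 normalised counts, a log2 fold change of 0.23 and an SE of 0.22, and was not called. Per kilobase, RNF43 led the 5 feedback genes in sensitive WM983A (60.3% of their sum), WM983B (58.4%) and WM1617 (50.3%), whereas ZNRF3 led in all 5 resistant libraries.

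AXIN2 (ENSG00000168646, chr17:65528563-65561648, minus strand) differed most in WM983A. Its normalised counts in sensitive libraries were 7.50, 19.1, 19.9, 42.1 and 45.1, and in the resistant ones 273, 34.8, 17.3, 30.7 and 109.8. It was 36.5-fold higher in WM983A, 2.43-fold in WM902B and 1.82-fold in WM983B, and within 1.4-fold in WM278 and WM1617. The log2 fold change was 1.79 with an SE of 0.79 (edgeR adjusted p = 0.693), and 1.09 in the blocked fit, which did not call it. The call was lost without WM983A (0.60), without WM983B (1.87) and without WM902B (1.97). An overlapping gene on the same strand, ENSG00000266076, shares 25.3% of its exon bases and had at most 37 raw counts.

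NKD2, an inhibitor of Dishevelled, was higher in the 3 resistant lines of primary origin and lower in the 2 of metastatic origin. Sensitive libraries held 3.00, 24.2, 11.3, 7.47 and 0 normalised counts and the resistant ones 223, 0, 21.3, 0 and 26.2. It was higher in resistant WM983A, by 74.3-fold with an exact 95% interval of 25.1 to 364, in WM278 by 1.89-fold and in WM902B by at least 8.60-fold. It was lower in WM983B by at least 8.45-fold and in WM1617 by at least 2.86-fold. With 3 and 2 lines of either kind the difference was not tested, and the share of all genes that split this way was not counted. No conclusion about origin is drawn from it. The log2 fold change over all lines was 2.52 with an SE of 1.52 (edgeR adjusted p = 0.771). It was 0.11 without WM983A and 0.99 with the block. NKD1, the related gene, ran from 0 to 72.6 normalised counts and had 29.1 and 70.1 in resistant WM983A and WM1617, close to 32 and 72.6 in their sensitive libraries.

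**Figure D5:**
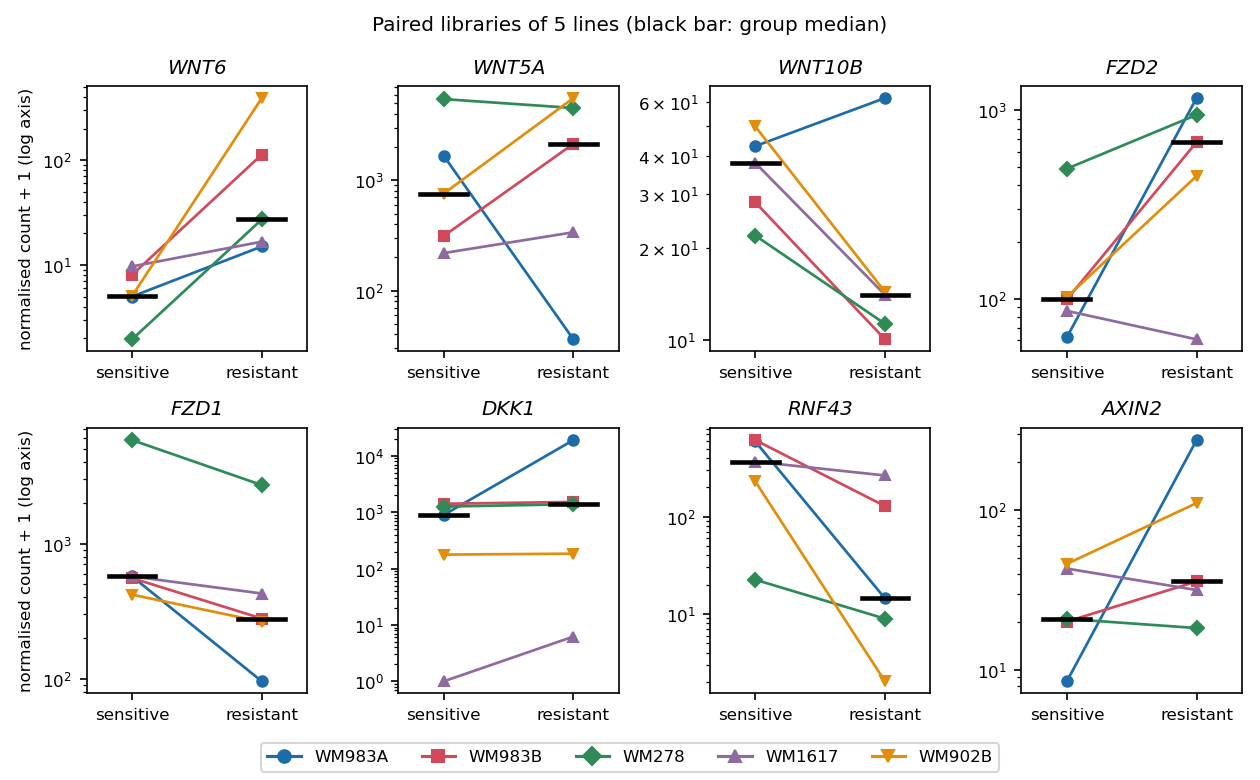
Normalised counts with 1 added, on a log axis, of 8 genes in the sensitive and resistant library of each line, joined by a line. Black bars are the group medians. All 5 lines slope up for WNT6 and down for FZD1 and RNF43, 4 of 5 slope up for FZD2 and down for WNT10B, and WNT5A drops steeply in WM983A alone, from 1674 to 35.

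Compared per kilobase, the median levels of the 32 genes ranked DKK1 (402), FZD6 (393) and SFRP1 (293) highest in the sensitive libraries, and DKK1 (625), SFRP1 (456) and FZD6 (304) in the resistant ones. These 3 medians lie within the spread of the libraries, since DKK1 alone ran from 0 to 8602 per kilobase. FZD2 moved from rank 14 to 5 and RNF43 from rank 9 to 26.

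The other genes of the pathway were counted in 7 lists of 62 genes that are not among the 48, of which 48 passed the filter. By edgeR 2 were higher and 0 lower, and in the blocked fit 2 were higher and 1 lower, where the same shares of all genes as above apply. LGR4, a receptor for the R-spondins that protect Frizzled from RNF43 and ZNRF3, was higher without the block alone (log2 fold change 1.96, SE 0.80, adjusted p = 0.685), with 4424 normalised counts in resistant WM983A and 268 to 739 in the other resistant libraries. Its call was lost without WM983A (0.43) and without WM902B (2.01). TLE2, a corepressor of TCF/LEF, was higher in both fits (2.03 with an SE of 0.71, adjusted p = 0.632, and 2.40 with an SE of 0.50) and at least 2-fold higher in 4 lines. Without the block its call was lost when WM983A (1.94), WM983B (1.61) or WM278 (1.86) was left out, and with the block it held without any 1 line (2.08 to 2.91). CELSR3, a planar polarity cadherin, was called higher in the blocked fit alone (1.55, SE 0.51) and TNFRSF19, a beta-catenin target, lower (-2.35, SE 0.91). CELSR3 lost that call without WM983B (1.22), and TNFRSF19 without WM983A (-2.13), WM983B (-1.71) or WM902B (-1.84). The destruction complex and its relays had 0 of 12 called in either fit, WNT production and release 0 of 2, and the other extracellular antagonists 0 of 5. Of 13 beta-catenin target genes in the fit, a list that contains 6 of the genes described here, AXIN2 alone was higher and none lower without a block, and RNF43 and TNFRSF19 were lower with it. The median log2 fold change of this list was 0.23 without and 0.10 with the block.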

How the data were processed

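Libraries of 5 sensitive and 5 resistant melanoma lines (oligo-dT selection, single-end reads) were aligned by the authors to GRCh38 with HISAT2 and quantified in StrandNGS. Tool versions, gene annotation, strand setting and the assignment of shared reads are not given in the sources used here. The authors deposited expected counts per gene, of which 24.1% of those above 0 were whole. The deposited normalized values are log2 ratios of each resistant library to its own sensitive library and served as an alternative for the changes within a line. In sensitive WM983B 455 raw values stood as dates and were recovered from those ratios; none belongs to the genes described.

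Expected counts were rounded and tested in R 4.3.3 with edgeR 4.0.16 (filterByExpr, 17288 genes, TMM, quasi-likelihood test), 5 resistant against 5 sensitive libraries, two-sided, without a block, with Benjamini-Hochberg adjustment over all genes. Genes are called at an unadjusted p of at most 0.05 and at least 2-fold. Alternatives were cell line as replicate block, DESeq2 1.42.0, limma 3.58.1 (voom), other size factors and filters, and leaving out each line, also within the block, which was added after seeing the data. The pairing comes from the lines' names: each resistant line descends from the sensitive line of that name. Deviations from the group means correlated at r = -0.06 (WM983A) to 0.67 (WM278) across genes. Scripts were tested on simulated data. Python 3.11.15, pandas 2.3.3, numpy 2.4.6, scipy 1.17.1 and matplotlib 3.10.9 were used.

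The 5 lines are the replicates. Without a block p-values measure the spread between lines, and with the block how far the change within a line differs from line to line. Folds within a line are ratios of TMM-normalised counts; against a library at 0 they are bounds at 3 counts in that library, and with 1 to 3 counts in a library an exact 95% interval is given. Library totals of 13693922 to 18033247 counts set this precision, for counting error only. Log2 ratios within lines were taken with 1 added. Levels per kilobase use exon lengths of GENCODE release 44, and positions are GRCh38. Promoters are from RefSeq, and 20 of the 32 described genes had an entry and were searched. The genes on chromosome 8 (FZD3, FZD6 and SFRP1) were left out of the search. FZD2, FZD7, LRP6, WNT7B, WNT10B, DKK3, AXIN2, NKD1 and ZNRF3 had no entry. Every described gene is named, with values in each library for WNT5A, DKK1, genes called in either fit, without overlap, or changed at least 8-fold in a line with 50 counts or more. The genes and lists were chosen with earlier results of these data known.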

Additional observations from a re-analysis of the deposited data

Results flagged for a closer look

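In groups of 5 libraries, the distance of a library to the nearest of the others was taken on log2 normalised counts with 1 added. The library was marked when that distance took up more than Dixon's critical share of the group's range on this scale. Of 64 groups tested 10 held such a library. Chance marks about 1 in 20 groups when values are normally distributed, which groups made up mostly of 0 are not. Resistant WM983A accounted for 3 of them: WNT7B at 4513 normalised counts against 1.74 to 11.6 in the other resistant lines, WNT10B at 60.7 against 9.07 to 13.4, and FZD4 at 42.3 against 193 to 248. Resistant WM983B stood apart for WNT3A (179 against 0 to 0.20) and for LRP6 (124 against 436 to 695).

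Among sensitive libraries, WM278 stood above the rest for FZD1 (5825 against 418 to 570.2) and FZD2 (489 against 61.3 to 101). WM902B was low for FZD9 (2.03 against 26.1 to 64.5) and high for WNT7B (20.3 against 0 to 1.00). WM1617 had 0 counts of DKK1, against 176 to 1414 in the other lines.

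NKD2 was higher in the resistant library of each of the 3 lines of primary origin and lower in both lines of metastatic origin. The mean log2 ratios differed by 7.68. This difference was not tested, and with 1 library per line and state it has no replicate check. The share of all genes that split this way was not counted.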

How the results depend on the processing

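The count of genes called higher, 3 of 28, was 6 of 44 without a filter (4.67% of the 38285 genes tested were higher), 1 of 17 with at least 10 counts in every library (3.1% of 13700) and 1 of 28 with limma-voom (2.05% of 17288). The count called lower, 0, was 3 with the replicate block (2.05% of all genes), 1 with limma-voom (1.56%) and 4 in DESeq2 with the block (3.78%), all at unadjusted p. After adjustment DESeq2 called 1, and 3 with the block. For the 62 other pathway genes the count of 2 higher was 4 without a filter, 1 with at least 10 counts and 1 with limma-voom, and that of 0 lower was 1 with the block, 1 with limma-voom and 2 in DESeq2 with the block. Leaving out each line gave 1 to 4 higher and 0 to 1 lower among the described genes, 1 to 2 and 1 to 3 within the block, and 0 to 2 and 0 to 1 among the other pathway genes, 1 to 2 and 0 to 2 within the block. Over these fits 1.81% to 6.11% of all genes were higher and 0.465% to 3.6% lower. The count of changes of at least 2-fold within a line, summed over the 28 genes and the 5 lines, was 34 higher and 37 lower. The shares of all genes stand above, line by line, for these counts and for counts raised to 3. The sums ran from 32 to 35 higher and from 31 to 39 lower under other added constants, other size factors, the authors' deposited log2 ratios and counts raised to 3. The last was chosen after seeing the data. The cause of these differences was not tested.

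The direction turned for WNT9A (-0.61 with the block, -0.87 with limma-voom, -0.84 in DESeq2 with the block) and FZD9 (-0.46, -0.60 and -0.62), neither called in any of these. Leaving out a line moved the log2 fold change across 0 for WNT9A (-0.73 to 1.43, and -1.70 to 0.33 within the block, with -1.51 and -0.43 between), FZD9 (-1.07 to 1.63, and -1.29 to 0.10, with -0.26, -0.74 and -0.019 between), FZD7 (-0.37 to 0.61, and -0.18 to 0.44, with -0.13 between), FZD5 (-0.24 to 0.66, and -0.30 to 0.47), FZD4 (-0.061 to 0.46, and -0.26 to 0.55), WNT5A (-0.10 to 1.47, and -0.10 to 1.52, with -0.085 between), LRP6 (-0.19 to 0.44, and -0.22 to 0.42) and WNT3 (-0.23 to 1.12, and -0.21 to 0.98). Within the block alone it did so for NKD2 (-0.36 to 2.39) and WNT5B (-0.56 to 1.22), and for WNT3A the difference in mean log2 level ran from -1.54 to 0.59. The block changed the calls of AXIN2, RNF43, FZD1 and WNT10B and no other call among the 28.

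The 5 lines include 2 pairs from the same patient, and each line and state is 1 library, so that values of genes abundant in a single line, such as WNT7B, rest on an unreplicated library. Shared exon bases limit RNF43 and AXIN2, which overlap a gene on the same strand. DKK3, FZD4 and WNT2B share exon bases with genes on the opposite strand, and what this adds to their counts was not tested. Low counts limit WNT6, whose highest sensitive level was 8.69 normalised counts.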

Other observations

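RSPO3, SOST and NOTUM, secreted modulators of the pathway that were picked after their values were seen, were abundant in the resistant library of 1 or 2 lines. RSPO3, an R-spondin that keeps Frizzled receptors at the membrane, had 0 counts in sensitive WM983A and WM983B and 2435 and 123 normalised counts in their resistant libraries, at least 811-fold and 40.7-fold higher, and at most 6.10 in the other libraries. SOST, an LRP5 and LRP6 antagonist, had 1314 normalised counts in resistant WM902B, at least 431-fold above its sensitive library, and at most 5.84 elsewhere. NOTUM, an enzyme that inactivates WNTs, went from 1 count to 76.6 normalised counts in WM983A (77.1-fold, exact 95% interval 13.4 to 3089) and was at 16.2 in resistant WM983B, whereas WM1617 had 38.7 and 51.1 in its sensitive and resistant libraries. All 3 were outside the fit.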
